A study of Mus musculus with 10 samples.

Results

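The IGKV17 family is a small group of kappa light chain variable (V) segments. It was taken here as every line of the deposited table whose V call, with the allele removed, was IGKV17-121 or IGKV17-127. These are 2 of the 114 V segments in the table, with 3181 and 3776 counts, together 6957 of 161780 counts (4.30%). Both were called as allele 01 only, and the call was the same in both reads on every line. A pseudogene of the family in the annotation had 0 lines.

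The study sequenced transcripts of the mouse kappa light chain locus, Igk, from small pre-B cells, the bone marrow stage at which this locus rearranges. It compared 5 samples of C57Bl6 mice labelled WT with 5 labelled rsCBE, which the series' design text writes with a delta before the name, all from mice of 6 to 12 weeks of age. The cells were sorted fresh from mice by flow cytometry, and no label describes the mutation further. The series' title concerns chromatin topology set by the DNA-binding protein CTCF, receptor editing and B-cell tolerance. The table holds Igk transcripts only, so the labelled cell type could not be checked against marker genes. Nothing in the labels says whether samples came from separate animals, so the p-values measure the spread between these samples.

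A kappa chain gene is made when the RAG recombinase joins a V segment to a joining (J) segment. The join forms the third complementarity-determining region (CDR3), a loop that touches antigen. J1 lies nearest to the V segments, and further rounds of rearrangement, which include receptor editing, can delete earlier joins and reach J segments further downstream. J3 is not functional in mouse.

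In GRCm38 (mm10), IGKV17-127 (ENSMUSG00000076508.3) lies at chr6:67861153-67861659 and IGKV17-121 (ENSMUSG00000076514.3) at chr6:68036812-68037318, both as genes of 2 exons on the plus strand, which J1 to J5 share. IGKV17-127 is 2860.9 kb and IGKV17-121 2685.24 kb from J1. Segments on this strand join J by deletion of the DNA in between. Their second exons, chr6:67861362-67861659 and chr6:68037021-68037318 and 298 nucleotides each, differ at 6 positions (98.0% identity). Across their whole transcripts of 359 nucleotides they differ at 9. The second exons are shown because they are what a sequence call has to tell apart, 5′ to 3′ on the plus strand from the GENCODE transcripts, with the bases that differ in capitals.

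IGKV17-121: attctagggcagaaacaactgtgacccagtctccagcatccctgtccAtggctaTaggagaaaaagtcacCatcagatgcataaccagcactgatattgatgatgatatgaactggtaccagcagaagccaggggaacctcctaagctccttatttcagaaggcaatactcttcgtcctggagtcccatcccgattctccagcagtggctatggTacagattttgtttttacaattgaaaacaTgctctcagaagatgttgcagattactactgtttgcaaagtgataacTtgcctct

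IGKV17-127: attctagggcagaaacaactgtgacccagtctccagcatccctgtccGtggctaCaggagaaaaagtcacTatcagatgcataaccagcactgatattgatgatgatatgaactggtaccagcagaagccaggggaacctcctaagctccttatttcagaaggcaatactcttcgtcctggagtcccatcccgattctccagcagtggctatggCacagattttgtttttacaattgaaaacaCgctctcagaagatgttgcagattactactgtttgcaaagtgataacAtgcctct

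The last 23 bases of each exon are the germline start of the CDR3. They differ at 1 base, A16T, where the first letter is the base of IGKV17-127, the second that of IGKV17-121 and positions count from the first base of the CDR3.

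IGKV17-121 CDR3 start: ttgcaaagtgataacTtgcctct

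IGKV17-127 CDR3 start: ttgcaaagtgataacAtgcctct

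The J segments add the following bases to the CDR3, shown because the junctions below are built from them.

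J1: gtggacg

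J2: tgtacacg

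J4: attcacg

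J5: gctcacg

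The base at that position was compared with the calls. It lies within the V segment, so it may itself have entered the call, and the comparison is not independent of it. The CDR3 kept the first 15 germline bases in 2969 of 3181 IGKV17-121 counts, and 2959 of these 2969 (99.7%) had the base of IGKV17-121 next, while 3 had that of IGKV17-127. For IGKV17-127 the first 15 bases were kept in 3560 of 3776 counts, of which 3531 (99.2%) had its own base next and 19 that of IGKV17-121. The calls and the CDR3 bases pointed to the same segment in nearly all counts that could be read this way. This does not test the calls, since the base may have been used to make them.

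Total counts per sample ran from 3109 (WT replicate 4) to 24083 (rsCBE replicate 1). Counts of IGKV17-121 per sample ran from 56 to 545 and of IGKV17-127 from 64 to 646, the lowest of each in WT replicate 4. Replicates 1 and 2 of each genotype were deposited as 1 library and replicates 3 to 5 as 2 parts, which were added. These 2 sets of samples differed in V segment use: 56 of 98 segments (57.1%) passed edgeR's quasi-likelihood test at an adjusted p under 0.05. Neither IGKV17 segment was among them: the log2 fold change of the samples in 2 parts over the others was -0.17 ± 0.13 (SE, adjusted p = 0.290) for IGKV17-121 and -0.04 ± 0.12 (SE, adjusted p = 0.811) for IGKV17-127.

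Neither segment passed a test of its share of the repertoire between the genotypes. The share of IGKV17-121 in WT replicates 1 to 5 was 1.97, 1.87, 1.61, 1.80 and 2.03% of the sample's counts (mean 1.86 ± 0.165, SD, n = 5). In rsCBE it was 2.26, 2.19, 1.59, 2.04 and 1.99% (2.01 ± 0.260). The lowest and the highest of the 10 values were both rsCBE, so the WT range lay within the rsCBE range. The share of IGKV17-127 in WT was 2.05, 2.14, 2.005, 2.06 and 2.55% (2.16 ± 0.225, SD, n = 5). In rsCBE it was 2.43, 2.77, 2.34, 2.53 and 2.20% (2.45 ± 0.216). Here 4 WT samples lay below all rsCBE samples and WT replicate 5 lay above 4 of them.

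The log2 fold change of rsCBE over WT was 0.12 ± 0.16 (SE, adjusted p = 0.992) for IGKV17-121 and 0.18 ± 0.16 (SE, adjusted p = 0.992) for IGKV17-127 in edgeR's quasi-likelihood test. Of the 98 V segments tested by edgeR, 0 (0%) were called and 7 had an unadjusted p under 0.05. DESeq2, which fitted 114 segments, called 0 as well (8 unadjusted). A block for replicate number gave 1 edgeR call and a term for the number of libraries gave 2, neither of them an IGKV17 segment. The size of both fold changes varied with the samples and the counting, and neither passed in any of the alternatives run. IGKV17-121 had 0.21 in the samples of 1 library and 0.05 in those in 2 parts, and IGKV17-127 had 0.31 and 0.09. With each clonotype counted once it was 0.09 for IGKV17-121 and 0.00547 for IGKV17-127. Leaving out 1 sample moved IGKV17-121 to between 0.07 (without WT replicate 3 or rsCBE replicate 1) and 0.19 (without rsCBE replicate 3). Added up, the pair took 4.02 ± 0.358% of the WT and 4.47 ± 0.408% of the rsCBE counts (SD over 5 samples of each genotype).

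**Figure D1:**
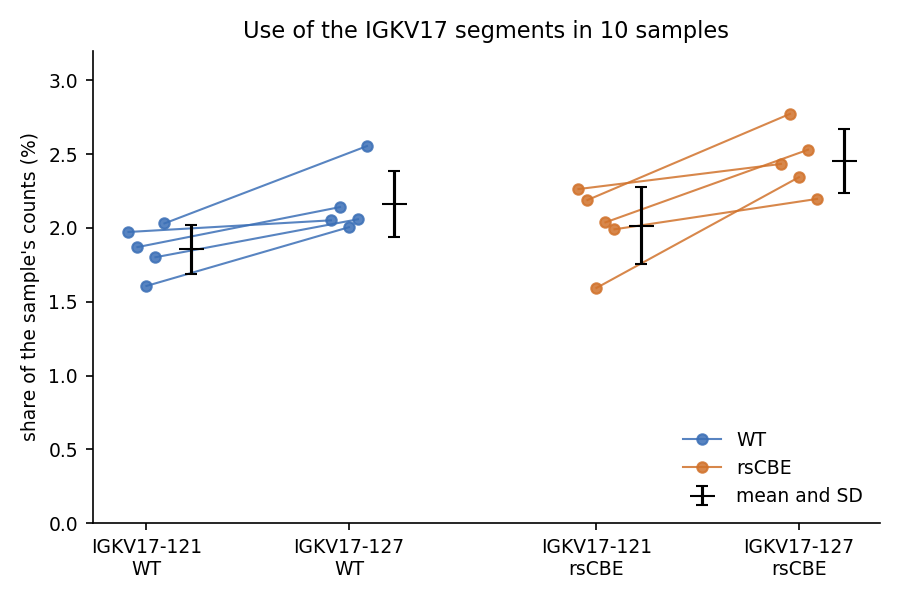
Share of each sample's counts (y axis, %) taken by IGKV17-121 and IGKV17-127 in 5 WT and 5 rsCBE samples. Lines join the segments of 1 sample, and bars give the mean and SD. Every line rises from IGKV17-121 to IGKV17-127.

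Within a sample IGKV17-127 was always the more used of the pair. The share of IGKV17-121 was lower by 0.373 points on average, and it was lower in 10 of 10 samples (exact sign-flip test, 2-sided, p = 0.00195, the smallest that 10 samples can give; adjusted p = 0.00977 over 5 measures). With each distinct clonotype (a V, J and CDR3 combination) counted once, as shares of the sample's clonotypes, the mean difference was -0.167 points and did not pass. How well the primers match each segment was not tested.

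J use was where both segments stood far from the rest of the repertoire. J1 was close to absent from its joins, while J1 was on average the J segment of 28.9 ± 4.39% of the counts of all other V segments (SD, n = 10). IGKV17-121 had 47 J1 counts of 3181. Per sample these were 7, 10, 5, 0 and 7 in WT, or 1.56, 2.50, 2.25, 0 and 3.76% of its counts. In rsCBE they were 5, 4, 5, 4 and 0, or 0.917, 0.784, 1.72, 1.38 and 0%. By the limit of 3 counts of the total, a count of 0 allows a share of up to 5.36% in WT replicate 4 and 1.29% in rsCBE replicate 5.

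IGKV17-127 had 75 J1 counts of 3776. Per sample these were 11, 11, 9, 5 and 0 in WT, or 2.36, 2.40, 3.25, 7.81 and 0%. In rsCBE they were 13, 6, 7, 11 and 2, or 2.22, 0.929, 1.64, 3.06 and 0.781%. The highest value, 7.81% in WT replicate 4, came from 64 counts and has a 95% Wilson interval of 3.38 to 17.0%; the 0 of 234 counts in WT replicate 5 allows up to 1.28% by the same limit. Intervals and limits of this kind cover counting error only. The J1 share of all other V segments ran from 22.6 to 35.1% over the 10 samples, above every value of either IGKV17 segment.

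Averaged over the 10 samples, the J1 share was 1.49 ± 1.16% (SD, n = 10) in IGKV17-121 and 2.44 ± 2.15% in IGKV17-127. Among the 66 V segments with at least 10 counts in each sample, IGKV17-121 had the lowest mean and IGKV17-127 ranked 4 from the lowest. The other 64 had a median of 24.7% and ran from 1.66 to 60.2%. Low J1 use was therefore not particular to the family: 7 segments had a mean under 5%, the other 5 being IGKV4-91 (1.66%), IGKV2-137 (1.94%), IGKV8-28 (2.60%), IGKV4-92 (2.86%) and IGKV2-112 (4.42%), which were named after their values were seen.

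Against all other V segments of the same sample, J1 was lower by 26.8 points in IGKV17-121 and by 26.0 points in IGKV17-127, in 10 of 10 samples each (exact sign-flip test, 2-sided, p = 0.00195, adjusted p = 0.00339 over 66 segments). In that test 78.8% of segments were called, 45.5% lower and 33.3% higher, so a call by itself was common and the size of the difference is what placed the pair at the low end. Within WT the difference was -29.8 and -28.7 points and within rsCBE -23.9 and -23.2, where 5 samples cannot give a p under 0.0625.

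**Figure D2:**
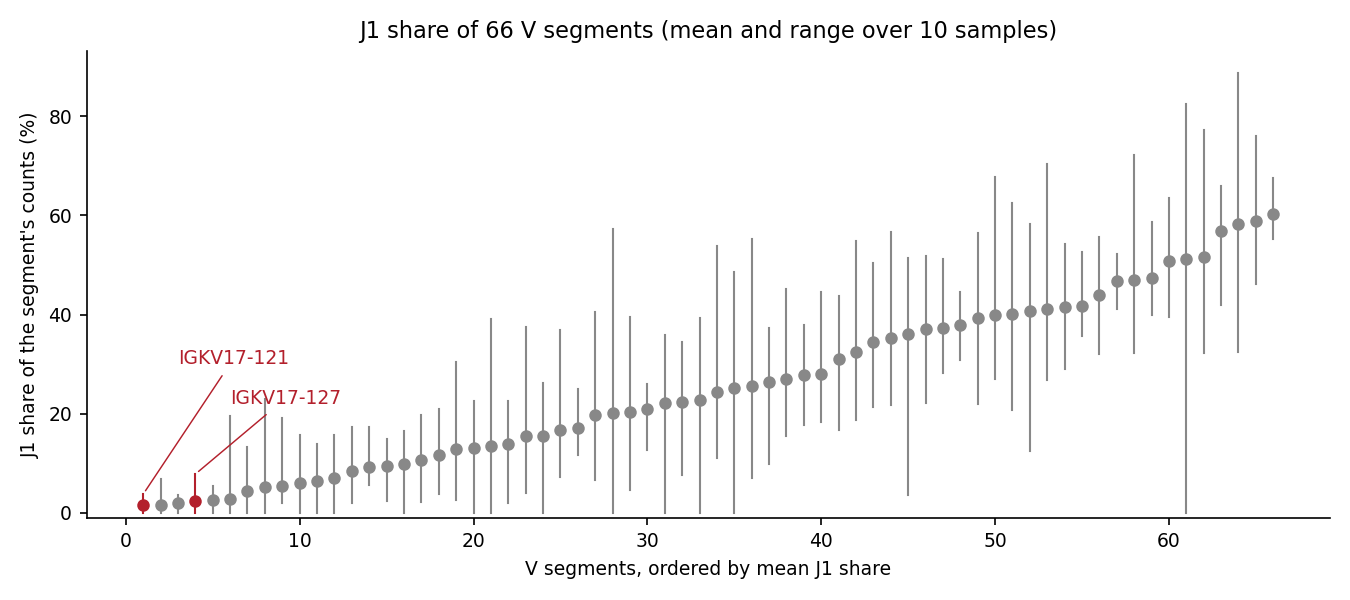
Mean J1 share (y axis, % of a segment's counts) of the 66 V segments with at least 10 counts in every sample, ordered from lowest to highest (x axis). Points are means and vertical lines run from the lowest to the highest of 10 samples. IGKV17-121 (1.49%) and IGKV17-127 (2.44%) stand at ranks 1 and 4.

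The low J1 share was there whether or not the join could be translated. In-frame joins, whose CDR3 has a length that is a multiple of 3 and no stop codon, had J1 in 27 of 2234 counts of IGKV17-121 (1.21%) and 58 of 2556 of IGKV17-127 (2.27%), against 29.98% in all other V segments. Among joins that were not in-frame it was 20 of 947 (2.11%) and 17 of 1220 (1.39%), against 24.9%. These shares are of counts pooled over the samples and were given no test.

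The V segments that lie next to the pair on the chromosome had higher mean J1 shares, a comparison that was not tested. The closest neighbours of IGKV17-121 are IGKV1-122, with J1 in 27.1 ± 8.95% of its counts (SD, n = 10), and IGKV9-120, with 37.3 ± 7.15%. Those of IGKV17-127 are IGKV9-128, with J1 in 25.3% of only 99 counts pooled over the samples, and IGKV14-126, with 11.9% of 2340. IGKV14-126 had a mean of 10.7 ± 5.73% (SD, n = 10) and ran from 2.17 to 19.7% over the samples, which overlaps the 0 to 7.81% of IGKV17-127, and the samples of IGKV9-128 ran from 0 to 50%. Of the 12 other segments in this stretch of the locus that the table holds, the 9 with 100 or more counts had pooled J1 shares of 11.9 to 50.7%. In their use by genotype, 0 of the 10 neighbours tested were called by edgeR, 0 had an unadjusted p under 0.05, and their log2 fold changes were above 0 in 5 and under 0 in 5 (median -0.00615, against -0.045 over all V segments tested).

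**Figure D3:**
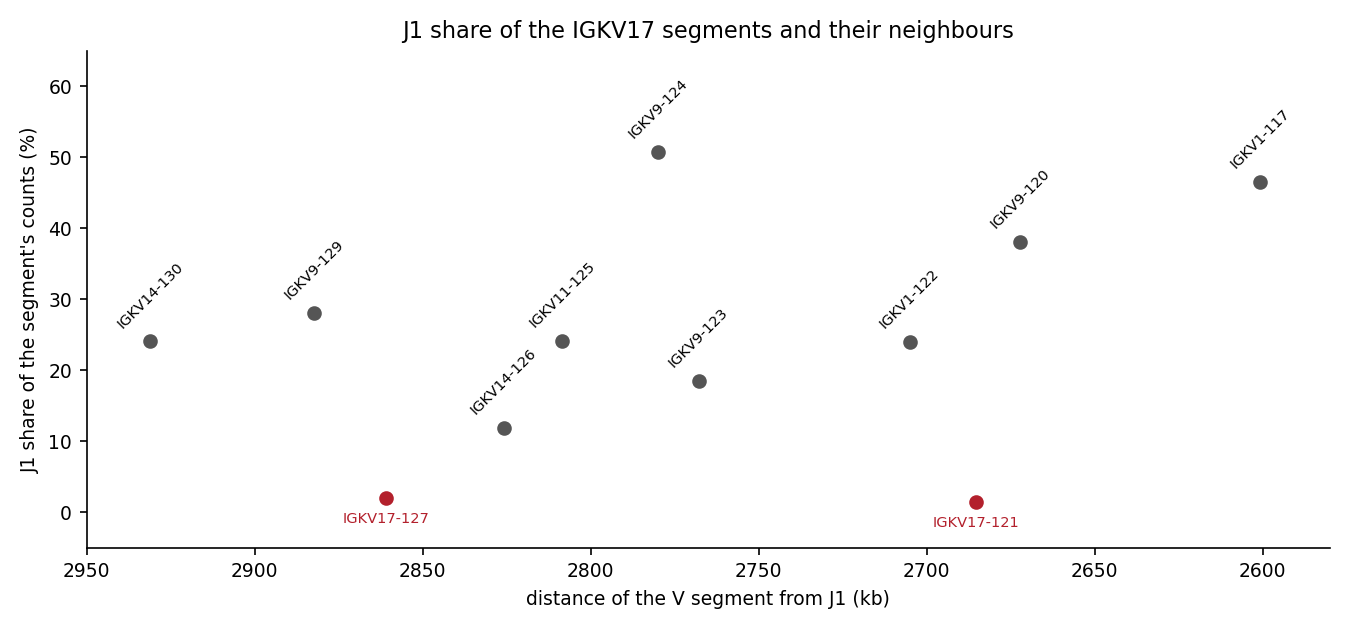
J1 share of counts pooled over 10 samples (y axis, %) against the distance of the V segment from J1 (x axis, kb), for the IGKV17 pair (red) and the 9 neighbours with 100 or more counts (grey). The pair lies under 2%, while the neighbours lie between 11.9 and 50.7%.

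Nearly all counts of the pair were joined to J2, J4 or J5. J4 made 26.9% of the IGKV17-121 and 27.5% of the IGKV17-127 counts on average, 11.6 and 12.3 points above all other V segments (adjusted p = 0.0161, higher in 9 of 10 samples, and 0.0129, higher in 10 of 10, in the exact sign-flip test), where 18.2% of segments were called higher. J5 made 41.0 and 44.0%, 7.26 and 10.3 points above the others (adjusted p = 0.00832, 9 of 10 samples, and 0.00516, 10 of 10, in the exact sign-flip test), with 30.3% of segments called higher and 57.6% called in all. With each clonotype counted once, the J5 difference of IGKV17-121 was 2.38 points and did not pass (adjusted p = 0.421, exact sign-flip test), and that of IGKV17-127 was 5.08 points (adjusted p = 0.0479, exact sign-flip test). In IGKV17-127 it was 13.5 points within WT and 7.15 within rsCBE, and the test of that difference did not pass (adjusted p = 0.175, exact permutation test). J2 made 30.6 and 26.0%, 7.99 points above the others in IGKV17-121 (adjusted p = 0.0430) and 3.31 points in IGKV17-127 (adjusted p = 0.0725, exact sign-flip test), with 4.55% of segments called higher. The J2 call of IGKV17-121 was lost when WT replicate 1, 2 or 4 or rsCBE replicate 1, 2, 3 or 4 was left out (6.18 to 8.44 points, adjusted p of 0.0547 to 0.0859, exact sign-flip test). IGKV17-127 passed without WT replicate 3 (4.04 points, adjusted p = 0.0262) and with each clonotype counted once (6.41 points, adjusted p = 0.0410, exact sign-flip test). Both J4 calls held in each of these settings. The J2 difference of IGKV17-121 was 12.1 points within WT and 3.87 within rsCBE. The test of that change by genotype did not pass (-8.24 points, adjusted p = 0.561, exact permutation test). J3 had 1 count in IGKV17-121 and 4 in IGKV17-127. The tests on J2 and J4 were chosen after J use had been seen.

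Shares within a segment add up to 100%, so a lower J1 share leaves more for the other J segments. The test was therefore repeated, after the data were seen, on shares of the counts not joined to J1, again as an exact sign-flip test over 66 segments. By this measure J5 was lower in IGKV17-121 than in all other V segments (41.7% against 46.9%, a difference of -5.22 points, lower in 9 of 10 samples, adjusted p = 0.0242). In IGKV17-127 the J5 difference did not pass (45.1% against 46.8%, -1.66 points, lower in 6 of 10, adjusted p = 0.378), and 37.9% of all segments were called in either direction. The higher J5 of the pair over all counts was not seen among counts without J1.

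J4 was higher in IGKV17-127 (28.1% against 21.3%, a difference of 6.85 points, higher in 9 of 10 samples, adjusted p = 0.0430), and in IGKV17-121 it did not pass (27.3% against 21.3%, 5.93 points, higher in 8 of 10, adjusted p = 0.168), with 12.1% of segments called. J2 was lower in IGKV17-127 (26.7% against 31.9%, -5.21 points, lower in 9 of 10, adjusted p = 0.0286), and in IGKV17-121 it did not pass (31.1% against 31.7%, -0.647 points, lower in 8 of 10, adjusted p = 0.927), with 30.3% called. Both calls for IGKV17-127 were lost with each clonotype counted once, at 4.73 points for J4 and -0.482 for J2. With 1 sample left out, the J4 call was lost in every case except without rsCBE replicate 5 (5.94 to 7.80 points), and the J2 call without WT replicate 1, 2 or 3 or rsCBE replicate 1 or 4 (-5.47 to -4.14 points).

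**Figure D4:**
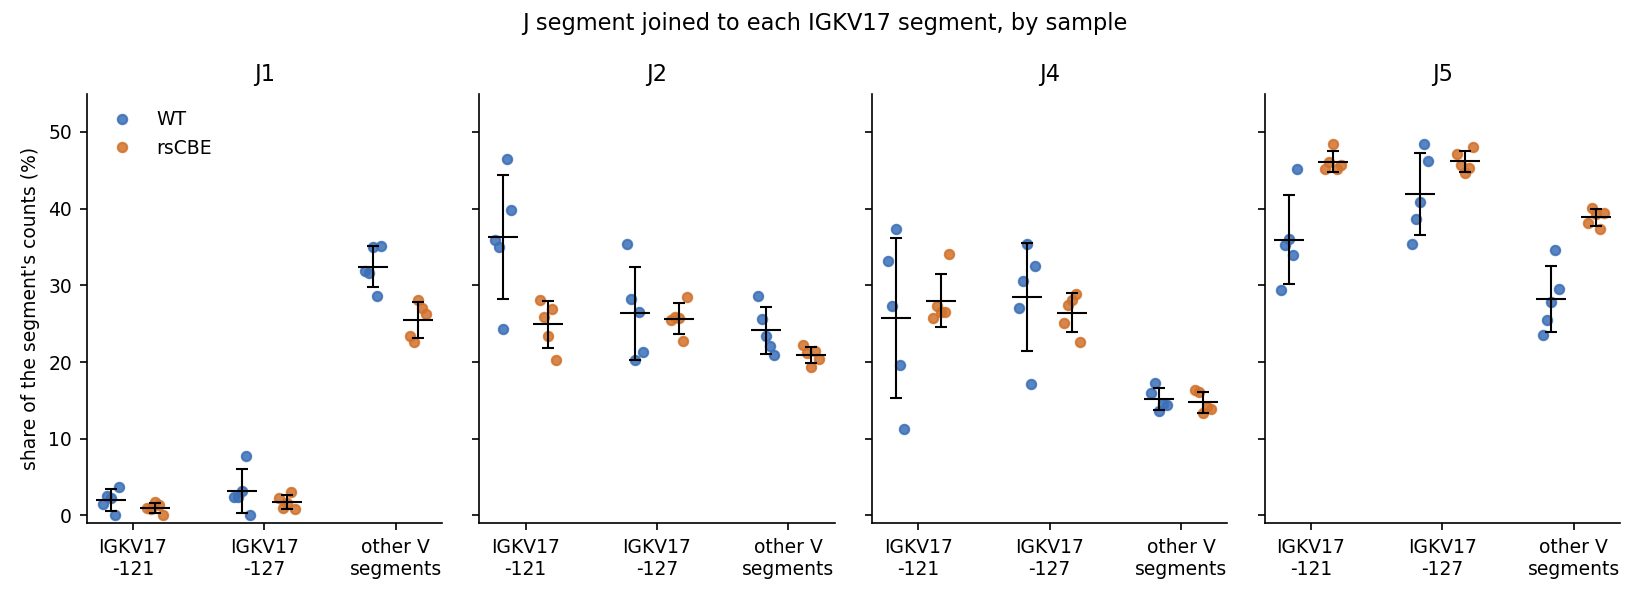
Share of the counts of IGKV17-121, of IGKV17-127 and of all other V segments together that were joined to J1, J2, J4 and J5 (y axis, %), 1 point per sample, WT in blue and rsCBE in orange, with the mean and SD as bars. J1 lies between 0 and 7.81% in the pair and between 22.6 and 35.1% in the others.

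Between the genotypes, J5 was the J segment with the lowest p in IGKV17-121. J5 is the last of the J segments and thus the furthest that successive rearrangements reach. In IGKV17-121 it took 29.4, 35.3, 36.0, 33.9 and 45.2% of counts in WT (36.0 ± 5.75, SD, n = 5) and 45.1, 46.1, 48.5, 45.2 and 45.7% in rsCBE (46.1 ± 1.37). Only WT replicate 5 reached the rsCBE range. The difference was 10.2 points (exact permutation test, 2-sided, p = 0.0159, adjusted p = 0.0748 over 66 segments). The rsCBE sample was the higher in each of the 5 same-numbered pairs, and the exact sign-flip test over these pairs gave p = 0.0625, the smallest that 5 pairs can give.

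In IGKV17-127, J5 took 35.3, 38.6, 40.8, 48.4 and 46.2% in WT (41.9 ± 5.38, SD, n = 5) and 47.1, 45.7, 44.6, 45.3 and 48.0% in rsCBE (46.1 ± 1.40). WT replicates 1 to 3 lay below all rsCBE samples, replicate 4, with 64 counts, above all and replicate 5 within their range. The difference was 4.27 points (exact permutation test, p = 0.143, adjusted p = 0.236), and it was -0.633 points with each clonotype counted once and 2.64 points without WT replicate 1. Of the 66 segments 0 (0%) were called and 27 had an unadjusted p under 0.05. The difference was above 0 in 62 segments and under 0 in 4, with a median of 9.41 points.

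The adjusted p of IGKV17-121 moved across the threshold in some alternatives. Without WT replicate 4 its difference was 9.65 points with the same unadjusted p, 0.0159, but an adjusted p of 0.0460 (exact permutation test), as 84 segments were tested and 29 called. It also passed without WT replicate 5 (12.5 points, 12 of 66 called, adjusted p = 0.0437) and with part a alone of the samples in 2 parts (9.65 points, 11 of 57 called, adjusted p = 0.0411), where its unadjusted p was 0.00794 in the exact permutation test. IGKV17-127 passed with part b alone (7.85 points, adjusted p = 0.0488, 7 of 43 called). Within the samples of 1 library the difference was 13.3 points in IGKV17-121 and 9.39 in IGKV17-127, from 2 samples a genotype. Within those in 2 parts it was 8.06 and 0.855 points, from 3 a genotype, where an exact permutation test cannot give a p under 0.1.

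J1 use, low in both genotypes, did not pass a test of genotype. It was 2.01 ± 1.38% in WT and 0.960 ± 0.653% in rsCBE for IGKV17-121 (adjusted p = 0.430, exact permutation test, n = 5 each) and 3.16 ± 2.87% and 1.72 ± 0.942% for IGKV17-127 (adjusted p = 0.703). All other V segments had 32.4 ± 2.69% in WT and 25.5 ± 2.38% in rsCBE. Of the 66 segments 0 (0%) were called and 16 had an unadjusted p under 0.05. The size of the J1 difference rested on single samples. For IGKV17-127 it was -0.278 points without WT replicate 4 and -2.23 without WT replicate 5, and for IGKV17-121 it was -0.618 without WT replicate 5.

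From WT to rsCBE the mean J1 share thus moved by -1.06 points in IGKV17-121 and -1.44 in IGKV17-127, while it moved by -6.92 and -6.90 points in all V segments other than each. The difference between these changes was 5.86 points for IGKV17-121 (exact permutation test, p = 0.00794, the smallest that 5 against 5 can give; adjusted p = 0.105) and 5.46 for IGKV17-127 (p = 0.0794, adjusted p = 0.484). A mean of 2.01% in WT leaves no room for a change of -6.92 points, so the low WT level bounds this difference. The J5 share moved by 10.5 points in all segments other than IGKV17-121, from which the change in IGKV17-121 differed by -0.375 points (adjusted p = 0.959, exact permutation test). It moved by 10.6 points in all other than IGKV17-127, from which the change in IGKV17-127 differed by -6.38 points (p = 0.00794, adjusted p = 0.175, exact permutation test). With part a alone of the samples in 2 parts this was -9.28 points and with part b alone -2.26 (p = 0.357, exact permutation test). With each clonotype counted once the J1 value of IGKV17-127 was 3.58 points. Of 66 segments 0 (0%) were called for J1 (6 at an unadjusted p under 0.05) and 0 (0%) for J5 (9 unadjusted), in tests chosen after the data were seen.

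J2 and J4 did not pass in either segment. In IGKV17-121 the J2 mean was 36.3 ± 8.06% in WT and 24.9 ± 3.12% in rsCBE (-11.4 points, lower in 5 of 5 same-numbered pairs; exact permutation test, p = 0.0317, adjusted p = 0.349, n = 5 each). With each clonotype counted once the difference was -5.49 points. In IGKV17-127 it was 26.3 ± 6.05% and 25.7 ± 2.03% (adjusted p = 0.943). J4 was 25.8 ± 10.5% and 28.0 ± 3.43% in IGKV17-121, and 28.5 ± 7.03% and 26.4 ± 2.53% in IGKV17-127 (adjusted p = 0.955 for both, exact permutation test). Of the 66 segments 0 (0%) were called for J2 and 0 (0%) for J4, and 8 had an unadjusted p under 0.05 in each. The WT samples spread more than the rsCBE samples in each of these 4 pairs of groups. Among counts not joined to J1, J5 was 36.7 ± 6.31% in WT and 46.6 ± 1.57% in rsCBE for IGKV17-121, and 43.3 ± 6.31% and 47.0 ± 1.32% for IGKV17-127. All other V segments had 41.7 ± 5.78% and 52.2 ± 1.89%, and these genotype differences were not tested on this measure.

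The V-J pairs were also tested as shares of the whole repertoire, and none of this family passed. The log2 fold change of rsCBE over WT was 0.47 ± 0.25 (SE, adjusted p = 0.525, edgeR) for IGKV17-121 with J5 and 0.32 ± 0.25 (SE, adjusted p = 0.697) for IGKV17-127 with J5. IGKV17-121 with J2 gave -0.41 ± 0.29 (SE, adjusted p = 0.669). With each clonotype counted once, IGKV17-127 with J5 was 0.09 and IGKV17-121 with J2 was -0.15. In-frame joins alone gave -0.16 for IGKV17-121 with J2 and 0.30 for IGKV17-121 with J5, and joins not in-frame -0.93 (unadjusted p = 0.0408, adjusted p = 0.350, edgeR) and 0.86. By form of deposit, IGKV17-121 with J2 had -0.18 in the samples of 1 library and -0.59 in those in 2 parts. Of 270 pairs 0 (0%) were called, 25 had an unadjusted p under 0.05, and DESeq2, which fitted 472 pairs with no such filter on low counts, called 2, neither of them of this family. In the samples of 1 library alone edgeR called 35, among them IGKV17-121 with J5 (0.71, adjusted p = 0.0413) and IGKV17-127 with J5 (0.64, adjusted p = 0.0457), while in those of 2 parts the values were 0.29 (adjusted p = 0.877) and 0.12 (adjusted p = 0.964). The J1 and J3 pairs of the family had too few counts for the 270, and without the filter none passed (adjusted p of 0.717 or more in edgeR and 0.723 or more in DESeq2).

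About 2 in 3 counts of each segment were in-frame, which is the first requirement for a kappa protein. In IGKV17-121 the in-frame share was 71.3, 75.8, 70.7, 53.6 and 75.3% in WT (69.3 ± 9.09, SD, n = 5) and 72.7, 69.6, 68.0, 71.0 and 55.6% in rsCBE (67.4 ± 6.81). In IGKV17-127 it was 77.9, 72.5, 62.8, 59.4 and 71.8% in WT (68.9 ± 7.60) and 67.1, 61.5, 64.95, 66.4 and 67.6% in rsCBE (65.5 ± 2.46). The groups overlapped in both segments, and the differences of -1.93 and -3.40 points did not pass (adjusted p = 0.831 and 0.662, exact permutation test). Their size was not stable: with each clonotype counted once they were -6.06 and -6.16 points, and without WT replicate 4 they were -5.86 and -5.77. The IGKV17-121 difference was 1.02 points without rsCBE replicate 5, -3.24 without rsCBE replicate 1, -0.318 without WT replicate 2 and -0.438 without WT replicate 5. That of IGKV17-127 was -1.13 without WT replicate 1, and -11.0 points in the samples of 1 library against 1.65 in those in 2 parts. Of the 66 segments 0 (0%) were called and 10 had an unadjusted p under 0.05, with a median difference of -5.43 points. Against all other V segments of the same samples the difference was 0.406 points for IGKV17-121 and -0.788 for IGKV17-127 (adjusted p = 0.882 and 0.671, exact sign-flip test), where 37.9% of segments were called in either direction.

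The CDR3 was of 27 nucleotides, 9 codons, in most counts pooled over the samples: in 1840 of 3181 counts of IGKV17-121 (57.8%) and 2109 of 3776 of IGKV17-127 (55.9%). Per sample this share ran from 42.7 to 65.25% in IGKV17-121 and from 35.9 to 68.3% in IGKV17-127. Next came 28 nucleotides in IGKV17-121 (8.87%) and 25 in IGKV17-127 (8.18%), both out of frame. The mean length of in-frame CDR3s was above that of all other V segments by 0.558 nucleotides in IGKV17-121 and by 0.386 in IGKV17-127, in 10 of 10 samples each (adjusted p = 0.00496, exact sign-flip test). Of the 66 segments 54.5% were called longer and 66.7% in all.

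By genotype the mean in-frame length of IGKV17-121 was 27.16 ± 0.172 nucleotides in WT, against 27.35 ± 0.139 in the rsCBE samples (SD over 5 samples of each; exact permutation test, p = 0.0873, adjusted p = 0.873). For IGKV17-127 it was 27.19 ± 0.119 and 26.98 ± 0.112 (exact permutation test, p = 0.0159, adjusted p = 0.873). The differences, 0.196 and -0.210 nucleotides, had opposite signs and neither passed, and with each clonotype counted once they were 0.537 and 0.106 nucleotides, of the same sign. Part b alone gave 0.112 for IGKV17-121, and the samples of 1 library gave -0.107 for IGKV17-127. Of 66 segments 0 (0%) were called and 1 had an unadjusted p under 0.05.

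**Figure D5:**
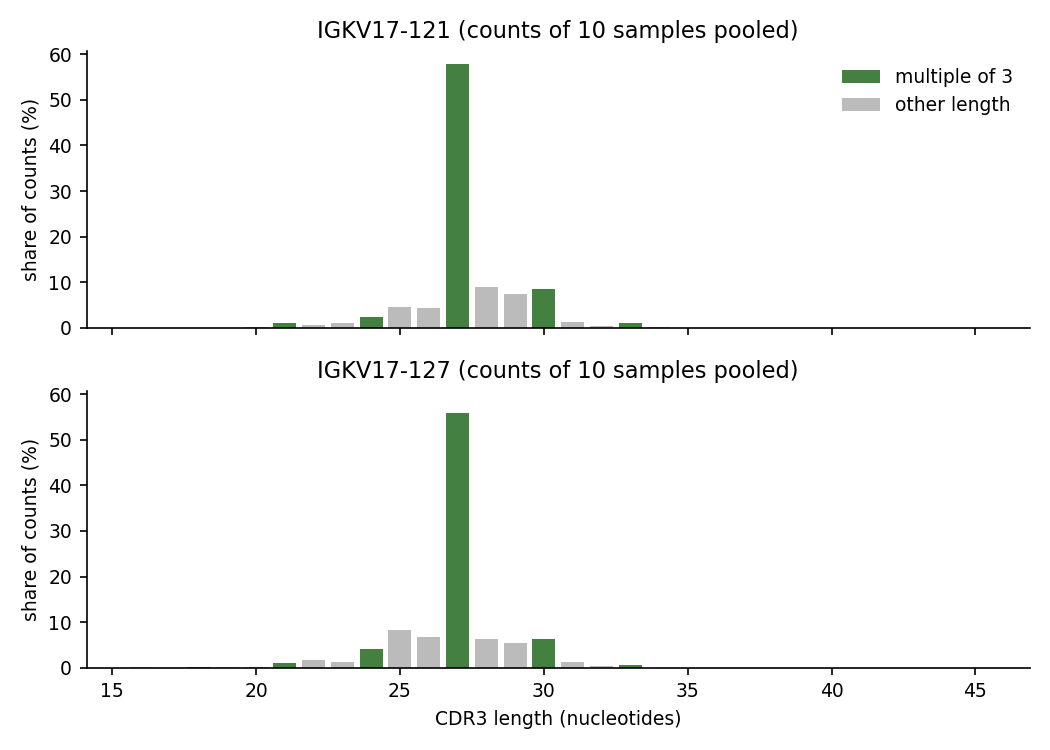
Distribution of CDR3 length (x axis, nucleotides) over the counts of IGKV17-121 (top) and IGKV17-127 (bottom), pooled over 10 samples, as % of counts (y axis). Lengths that are multiples of 3 are green. The bar at 27 nucleotides holds 57.8 and 55.9%.

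A few joins of germline bases accounted for much of each segment, and the leading ones were the same in both but for the base that differs. The 3 with the highest mean share of each segment are shown, with the bases after the match to the V segment in capitals, followed by the leading join to J1.

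IGKV17-121 with J5, rank 1: ttgcaaagtgataacttgcctctCACG

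IGKV17-121 with J2, rank 2: ttgcaaagtgataacttgccGTACACG

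IGKV17-121 with J5, rank 3: ttgcaaagtgataacttgccGCTCACG

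IGKV17-121 with J1: ttgcaaagtgataacttgccGTGGACG

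IGKV17-127 with J5, rank 1: ttgcaaagtgataacatgcctctCACG

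IGKV17-127 with J2, rank 2: ttgcaaagtgataacatgccGTACACG

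IGKV17-127 with J5, rank 3: ttgcaaagtgataacatgccGCTCACG

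IGKV17-127 with J1: ttgcaaagtgataacatgccGTGGACG

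The first join made 16.1 ± 6.24% of the IGKV17-121 and 15.4 ± 2.12% of the IGKV17-127 counts (SD, n = 10). It keeps the whole V end, and 2 of its bases match the V and the J segment alike. The second, to J2, made 13.5 ± 4.58 and 10.1 ± 4.83%, and the third, to J5, 7.59 ± 2.89 and 8.54 ± 1.60%; both lack the last 3 V bases. All 6 were found in 10 of 10 samples, are in-frame and have 0 inserted bases. The J1 join has the same V end as the joins of rank 2 and 3 but only 19 counts in 6 samples for IGKV17-121 and 34 counts in 8 samples for IGKV17-127. The CDR3 of the first join was also listed with J4, whose last bases in the CDR3 are those of J5, at 4.48 ± 3.31 and 3.84 ± 2.05% of counts.

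By genotype, the first join had a mean of 17.1 ± 8.99% in WT and 15.1 ± 2.04% in rsCBE for IGKV17-121, and 16.4 ± 2.46 and 14.5 ± 1.34% for IGKV17-127 (SD over 5 samples of each, not tested). The second had 15.9 ± 5.30 and 11.1 ± 2.25%, and 10.2 ± 7.12 and 9.94 ± 1.33%. Its WT values were the more spread in both segments.

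Junctions with no inserted base made up most joins to J1, J2, J4 and J5. Among counts that kept the first 15 germline bases their share ran from 78.9% (J1) to 84.2% (J2) in IGKV17-121, and from 80.6% (J2) to 87.5% (J5) in IGKV17-127. By the match to germline, how much of the V end was kept differed with J. The whole V end was kept in 49.2% of J5, 36.2% of J4, 25.6% of J2 and 13.2% of J1 counts of IGKV17-121, and in 43.0, 27.2, 15.5 and 14.3% of those of IGKV17-127. Exactly 3 bases were missing in 28.1, 39.5, 55.2 and 57.9% of the same IGKV17-121 counts, and in 29.9, 44.9, 57.7 and 65.7% of those of IGKV17-127. Where a base fits both segments it was given to V, so the shares of whole V ends hold such bases.

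Of 6 tests on junctions by genotype, added after the data were seen, none passed. The lowest p was for the mean number of V bases missing in IGKV17-127, 1.83 ± 0.234 in WT against 2.07 ± 0.0796 in rsCBE (SD over 5 samples of each; exact permutation test, p = 0.0317, adjusted p = 0.190 over the 6). The mean number of inserted bases was 0.355 ± 0.0834 and 0.415 ± 0.0566 in IGKV17-121, and 0.271 ± 0.0790 and 0.327 ± 0.0613 in IGKV17-127 (adjusted p = 0.524 for both, exact permutation test).

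The pair shared most of its repertoire at the level of the junction. Of the 251 distinct joins of IGKV17-121 that kept the first 15 bases, 114 (45.4%) had a counterpart in IGKV17-127 that was alike apart from the base that differs, and these held 92.9% of the counts. Seen from IGKV17-127 they were 114 of 255 joins (44.7%) with 91.6% of the counts. Across samples, 3 of the 446 clonotypes of IGKV17-121 were present in all 10 and held 36.0% of its counts, while 344 were in 1 sample and held 12.3%. For IGKV17-127, 5 of 447 were in all 10 with 40.6% of the counts, and 340 were in 1 sample with 10.8%. Of these clonotypes, 313 of IGKV17-121 and 305 of IGKV17-127 had 1 count in all and so could be in 1 sample only. The numbers were not set against those of other V segments. The members of the pair are near-identical in sequence, and how many counterparts came from reads called as the wrong member was not tested.

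Across the 10 samples, the V segment whose share was most like that of IGKV17-121 on the log2 scale was IGKV8-24 (Pearson's r = 0.67), followed by IGKV8-30 (0.66) and IGKV4-86 (0.64). For IGKV17-127 they were IGKV8-24 (0.74), IGKV3-10 (0.72) and IGKV4-73 (0.64). The pair's own r was 0.60 (Spearman's rho 0.70), which ranked 6 for either. Without the 2 samples farthest from the median of the member, r for IGKV17-121 was 0.82 with IGKV8-24, 0.05 with IGKV8-30 and 0.39 with IGKV4-86, and for IGKV17-127 it was 0.54 with IGKV8-24, 0.72 with IGKV3-10 and 0.66 with IGKV4-73. The pair's own r was then 0.75 or 0.33, by whose median the samples were left out. Within the 6 samples in 2 parts, r was 0.37, 0.66 and 0.70 for IGKV17-121 with its 3 segments, 0.85, 0.84 and 0.36 for IGKV17-127, and 0.58 for the pair. These are descriptions: the samples share their genotype and form of deposit, and shares of 1 total are not independent.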

How the data were processed

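RNA of sorted pre-B cells was made into Igk amplicon libraries and read as 151-bp read pairs on a MiSeq, per the labels' protocols. The authors deposited a table that lists V, J and CDR3 combinations with a whole-number count for 16 libraries of 10 samples, per the file headers. The calling program, its filters and the unit behind a count (reads or molecules) are not given in the sources used here, and mm10 is the build per the submitters' processing notes. Parts a and b of a replicate were added. Total counts ran from 3109 to 24083 per sample, and shares carry 95% Wilson intervals of counting error. No pair of samples of a genotype agreed within sampling noise over V segments (chi-square per degree of freedom 2.39 or more).

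Counts per V segment and V-J pair were tested with edgeR 4.0.16 in R 4.3.3 (quasi-likelihood, library size as the total count, Benjamini-Hochberg over all features), on a fit of all 10 samples. DESeq2 1.42.0 was an alternative. Tested on simulated data, 100% of 20 V segments changed 2-fold were recovered among 99, with 2 false calls, and 95% of 60 V-J pairs among 281, with 4 false calls. Apart from these changes the simulated samples had the same profile and dispersion, with no difference between forms of deposit, unlike the real samples. Only segments and pairs above a minimum mean count were changed. The recovery therefore does not measure what the tests could find in the real samples. Shares within a segment were compared by exact permutation between genotypes and by exact sign flips against all other V segments of the same sample, for the 66 segments with at least 10 counts in each sample, at an adjusted p under 0.05 (Python 3.11.15, scipy 1.17.1). Germline sequences and positions are from GENCODE for GRCm38. The base at which the segments differ was read only where the first 15 CDR3 bases were germline.

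Same-numbered WT and rsCBE samples deviated together (correlation of V segment shares 0.453 to 0.877 in the 5 pairs). The numbers follow the form of deposit, and only replicates 1 and 3 had their own number as best partner.

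The members and lists were chosen with earlier results of these data known. Named were the pair, its nearest neighbours, the 3 V segments most like each in share and the 3 leading clonotypes of each. Alternatives left out each replicate, used 1 part, in-frame or other joins, or clonotypes once, and changed scaling, filter, model and test.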

Additional observations from a re-analysis of the deposited data

Results flagged for a closer look

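In 28 groups of 5 samples that were checked, 6 had a highest or lowest sample set apart from the others by more than Dixon's 95% limit of 0.71 of the range, where chance gives 1.4. The in-frame share of IGKV17-121 was 53.6% in WT replicate 4, with 56 counts, against 70.7 to 75.8% in the other WT samples, and 55.6% in rsCBE replicate 5 against 68.0 to 72.7%. The J4 share of IGKV17-121 was 34.1% in rsCBE replicate 5 against 25.7 to 27.3%, and its J5 share 48.5% in rsCBE replicate 3 against 45.1 to 46.1%. The share of IGKV17-127 in the repertoire was 2.55% in WT replicate 5 against 2.005 to 2.14%. Its mean in-frame CDR3 length was 27.4 nucleotides in WT replicate 4, with 64 counts, against 27.1 to 27.2.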

How the results depend on the processing

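The depth of WT replicate 4 limits the shares of the pair in that sample. For J5 by genotype 0 of 66 segments were called, but 11 of 57 with part a alone, 7 of 43 with part b alone, and 0 to 29 when 1 sample was left out (29 of 84 without WT replicate 4, 12 of 66 without WT replicate 5). V segment use gave 2 calls with the number of libraries as a term, 1 with the replicate block and 1 from joins not in-frame; V-J pairs gave 2 by DESeq2, 7 with that term and 35 in the samples of 1 library. With the replicate block the 270 V-J pairs gave 0 calls, as without it. For shares and lengths within a segment the block is an exact sign-flip test over 5 pairs, which cannot give a p under 0.0625 and so could make no call. Against all other V segments, J1, J5, in-frame share and length gave 52, 38, 25 and 44 calls among 66 segments, and 29, 20, 14 and 18 among the 35 that had enough clonotypes with each counted once, and 0 each within WT or rsCBE alone, where 5 samples cannot pass; leaving out 1 sample gave 37 to 60 for J5 (60 of 84 without WT replicate 4). The share of IGKV17-121 minus that of IGKV17-127 did not pass with each clonotype once (-0.167 points) or in WT (-0.306) or rsCBE alone (-0.440). Their J1 difference did not pass over all samples (-0.956 points, adjusted p = 0.486, exact sign-flip test). Nor did their J5 difference (-2.98 points, adjusted p = 0.151, exact sign-flip test). With 1 sample left out the J1 difference ran from -1.48 to -0.195 points. It passed without WT replicate 5 (adjusted p = 0.0488, exact sign-flip test). The J5 difference then ran from -3.73 to -1.70, passing without rsCBE replicate 3 (adjusted p = 0.0293, exact sign-flip test). It was -5.92 points in WT alone and -0.0367 in rsCBE alone, where 5 samples cannot pass. Their length difference was -0.0334 nucleotides in WT alone.

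The values below changed sign under an alternative in which they passed no test; they missed the threshold over all samples too, though J5 of IGKV17-127 between genotypes passed with part b alone, in its main direction. From joins not in-frame the log2 fold change was -0.0240 for IGKV17-121, -0.23 for IGKV17-121 with J4 and -0.18 for IGKV17-127 with J4. With each clonotype once it was -0.0193 and -0.00634 for these J4 pairs, and the genotype differences were -0.633 points (J5), 2.72 (J2), 0.0675 (J4) and 0.106 nucleotides (length) for IGKV17-127, -2.59 points (J4) and 1.41 (J5 less that of other segments) for IGKV17-121, whose in-frame share less that of other segments was -2.46. Part b alone gave a log2 fold change of -0.000597 for IGKV17-127 with J2, -0.0834 with J4 and 0.0882 for its use in samples of 2 parts over the others, and 0.732 points for the J5 change of IGKV17-121 less that of other segments; part a alone gave 0.650 points for J2 of IGKV17-127. Samples in 2 parts alone gave -0.0475 (log2) for IGKV17-127 with J4, 1.65 points (in-frame) and 2.95 (J2); those of 1 library gave -3.75 points for J4 of IGKV17-121. The in-frame share less that of other segments was -1.35 points for IGKV17-121 in WT alone and 0.219 for IGKV17-127 in rsCBE alone. With 1 sample left out, IGKV17-127 with J4 ran from -0.0704 to 0.17 and its use by form of deposit from -0.10 to 0.0284 (log2), its J2 difference from -2.20 to 1.58 points; for IGKV17-121 the in-frame difference ran from -5.86 to 1.02, J4 from -1.37 to 5.16, the J5 change less that of other segments from -2.48 to 1.55, and the in-frame share less that of other segments from -0.104 to 1.80. Among counts not joined to J1, J2 of IGKV17-121 less that of other segments was 0.157 points with each clonotype once, 1.55 in WT alone and -2.45 to 0.469 with 1 sample left out, and J5 of IGKV17-127 less that of other segments was 1.73 in WT alone. There, the J5 call of IGKV17-121 was lost only in WT (-5.02) and rsCBE alone (-5.42), where 5 samples cannot pass. The causes were not tested.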

Other observations

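Clonotypes of the pair were found again between the 2 parts of a replicate. Of the clonotypes in the smaller part, the larger part held 86.7 to 95.2% in the 3 WT replicates deposited in parts and 67.6 to 76.2% in the 3 rsCBE replicates, a difference that was not tested. Such a share depends on the sizes of the parts, which were not alike. Parts a and b of replicates 3 to 5 held 98 and 49, 28 and 21, and 88 and 45 clonotypes in WT. In rsCBE they held 99 and 84, 112 and 74, and 95 and 72. CDR3s of any length that is a multiple of 3 with a stop codon in frame made 23 counts of IGKV17-121 and 21 of IGKV17-127.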
